A study of Homo sapiens with 40 samples.

Results

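BKM120 and GDC0941, a pair of class I PI3K inhibitors, were compared at the concentration level that the labels name IC50, on 8 of the 40 arrays of the series, 4 per compound. The members are the arrays whose titles name BKM120 or GDC0941 at that level; the titles spell the second compound GCD0941 and the descriptions GDC0941, and it was read as 1 compound. All cells were A2058, an established human melanoma line, and RNA was taken 24 hours after a single treatment. The groups used were BKM120 at IC50, GDC0941 at IC50, BKM120 at IC30 and at IC90 (max), GDC0941 at IC90 and at max, and cells given DMSO, the solvent, alone, each with 4 arrays described as biological replicates. Arrays of another compound, BEZ235, entered only the shared estimate of the spread and the choice of probe sets and of genes bright enough to test. The labels state no molar dose and do not say which response an IC value was read from, so equal level names need not mean equal inhibition of PI3K. A single line was studied, so the p-values measure the spread between cultures of this line only.

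PI3K makes the membrane lipid that recruits AKT, and AKT keeps the FOXO transcription factors out of the nucleus and feeds mTOR. When PI3K is inhibited, FOXO proteins can enter the nucleus and switch on their target genes, among them genes of cell-cycle arrest and of the receptor signalling that lies upstream of PI3K. BKM120 (buparlisib) is a pyrimidine that carries a pair of morpholine rings and a trifluoromethyl aminopyridine. GDC0941 (pictilisib) is a thienopyrimidine with a single morpholine, an indazole and a sulfonylpiperazine, and the morpholine oxygen is the hinge contact that both compounds share. The question put to the data was which genes still separate the compounds when both are given at their IC50 level.

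The cells carried their melanoma identity in both groups. The dimmest of the 9 melanoma markers tested was TYRP1, averaging 167 signal units in BKM120 cells and 152 in GDC0941 cells. PMEL averaged 1160 in BKM120 cells and 1175 in GDC0941 cells, and SOX10 averaged 1733 in BKM120 cells and 1765 in GDC0941 cells. Of 19 markers of other cell types, 8 were bright enough to test. LUM averaged 1498 in BKM120 cells and 1263 in GDC0941 cells, KRT18 847 and 897, and LYZ 208 and 183. The other fibroblast markers tested, COL1A1, COL3A1, DCN and PDGFRA, averaged 24.3 to 87.4, and PECAM1 14.9 and 16.9. The untested markers PTPRC, CD3E, CD14, CDH5, VWF, EPCAM, KRT5, CDH1 and HBB averaged 5.1 signal units or less in both groups, and none read exactly 0. The summed signal of the other-cell-type list was 2695.2 to 2837 on the BKM120 arrays and 2465.6 to 2709.2 on the GDC0941 arrays, a difference whose exact permutation p was 0.0571 (two-sided, 4 against 4 arrays, 0.0286 being the smallest p possible), or 0.229 adjusted over 4 array measures. The part of this in the results below was not tested. One array outside the comparison, BEZ235 IC50 replicate 3, stood apart, with a 3'/5' ratio of ACTB probe sets of 27.2 against 1.58 to 2.33 on the other 39 arrays, which is a sign of degraded RNA. It widens the spread estimated over all arrays, so calls without it are given beside the main ones.

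Few genes passed the adjusted threshold, and none of those called differed by as much as 2-fold on the log2(signal + 16) scale. That scale understates gaps of dim genes: CGA, a called gene, averaged 10.85 signal units in BKM120 cells and 24.9 in GDC0941 cells. Of 11865 genes tested, 71 (0.598%) differed at an adjusted p under 0.05, 54 (0.455%) higher and 17 (0.143%) lower in BKM120 cells than in GDC0941 cells. Of the 71, 4 differed by 1.5-fold or more on that scale. The median difference over all genes was 0.00 on the log2 scale. The arrays of the 2 groups did not overlap at all for 1501 genes (12.7%), and 1796 genes (15.1%) had an unadjusted p under 0.05 in limma. With no difference at all, these fractions would average 0.0286 and 0.05. Without the degraded array, 490 genes (4.13%) were called, 297 (2.5%) higher and 193 (1.63%) lower, and all 71 were among them. The count also depended on single arrays: it was 36, 27, 52 and 47 without BKM120 replicate 1, 2, 3 or 4, and 32, 35, 118 and 18 without GDC0941 replicate 1, 2, 3 or 4. Of the 30 genes with characterised symbols that had the largest called gaps and no overlap between the groups, 15 per direction, 4 (DHRS3, VASH2, CGA and NEFL) were called in every alternative processing and leave-one-out fit that gave them a value, and 26 missed the threshold in at least 1. VASH2 and CGA gave no value with the mean over probe sets or with a filter at the 60th percentile, so those alternatives could not change their calls. Each compound by itself had changed many more genes against DMSO. BKM120 changed 2360 genes (19.9%; 12.5% higher, 7.34% lower), and GDC0941 changed 1894 (16%; 9.81% higher, 6.15% lower), both counted against the same 4 DMSO arrays.

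**Figure D1:**
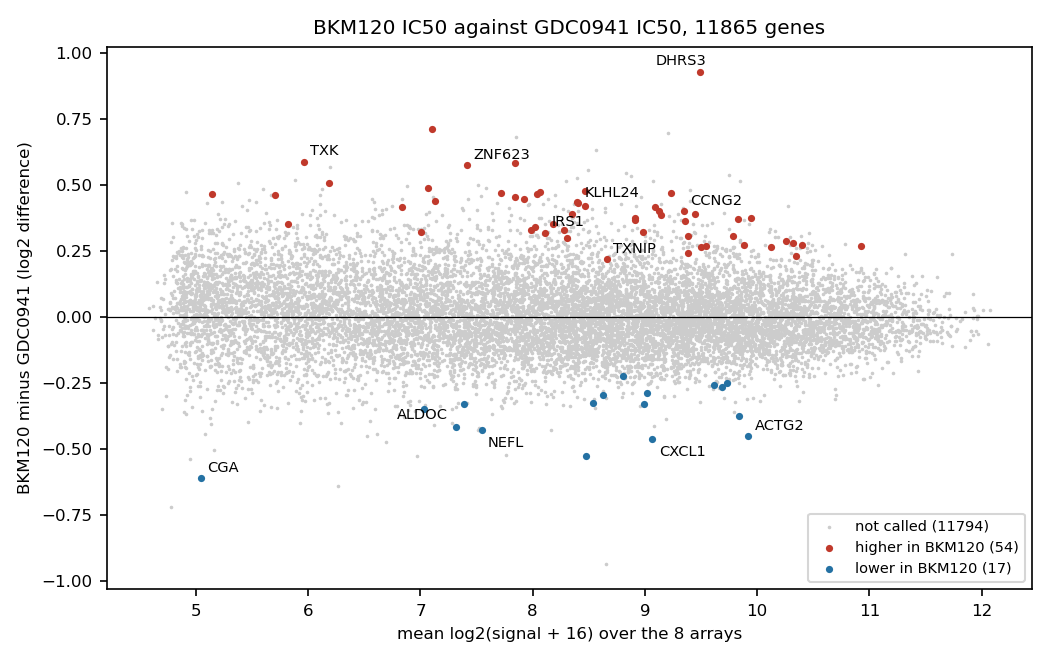
Difference between BKM120 IC50 and GDC0941 IC50 cells (vertical axis, log2) against mean log2(signal + 16) over the 8 arrays (horizontal axis), with 1 point per gene. The 54 genes called higher in BKM120 are red, the 17 called lower are blue, and DHRS3 stands highest at 0.93.

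The precision of the arrays bounds how different the compounds can be for most genes. The 95% interval of the difference lay within 0.5 on the log2 scale, that is 1.41-fold either way, for 10929 genes (92.1%), and within 2-fold for 11855 genes (99.9%). A gene outside the 71 is therefore not shown to respond alike, but for most genes the gap that these data allow is small on this scale. For dim genes, tested down to a mean signal of 13.6, the same bound allows a wider ratio of signals.

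DHRS3 was the gene that separated the compounds most among those called. It encodes a reductase that turns retinaldehyde back into retinol and so limits retinoic acid. DHRS3 signal was 944, 989.3, 978.9 and 1004.6 in BKM120 cells, 482.6, 544.5, 502.3 and 498 in GDC0941 cells, and 800.5, 775.2, 779.6 and 844.8 in DMSO cells. The lowest BKM120 array lay well above the highest GDC0941 array, and the DMSO arrays lay between the groups without touching either. The difference was 0.93 on the log2 scale (95% interval 0.67 to 1.19), or 1.90-fold, with an adjusted p of 0.000189 in limma. Against DMSO, DHRS3 fell with GDC0941 by 0.64 (adjusted p = 0.000414), while with BKM120 it was 0.29 higher, which did not pass the test (adjusted p = 0.118).

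The 2 compounds moved further apart on DHRS3 as the concentration level went up. With BKM120 the mean signal of DHRS3 was 800 in DMSO, 989 at IC30, 979 at IC50 and 814 at IC90 (max), so that the highest level was close to DMSO. With GDC0941 it was 800 in DMSO, 507 at IC50, 129 at IC90 and 66.8 at max, lower at each level. The gap between BKM120 and GDC0941 was 2.55 at the IC90 levels, which was 1.62 more than at IC50 (adjusted p of the change = 1.92e-08).

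DHRS3 belongs to a list of 31 genes of retinoid metabolism, of which 17 were bright enough to test. Besides DHRS3, 1 of the 16 others was called higher in BKM120 and 0 lower, and 3 were called higher without the degraded array, beside 0.455% of all genes called higher with all arrays and 2.5% without that one. The median of the 16 was 0.06, and 0.00 over all genes. RDH13, a mitochondrial retinol dehydrogenase of the same enzyme family, read 285.8, 311.7, 320.7 and 284.3 in BKM120 cells and 227.5, 226, 230.8 and 168.5 in GDC0941 cells. That is 0.47 higher (adjusted p = 0.0468), but the other 3 probe sets of RDH13, which are dimmer, differed by -0.10 to -0.03. RXRB, the nuclear receptor partner of the retinoic acid receptors, was 0.50 higher, with overlapping arrays, and passed only without the degraded array, with an adjusted p of 0.15 with all arrays and 0.039 without it. PLAAT4, a retinoid-inducible gene, was 0.30 higher and likewise passed only without that array, with an adjusted p of 0.114 with all arrays and 0.0468 without it.

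FOXO targets and genes of receptor feedback were the list with the most called members. Of 44 tested, 4 were higher in BKM120 and 0 were lower, beside 0.455% and 0.143% of all genes, and the median was 0.09. Without the degraded array 7 were higher and 0 lower, beside 2.5% and 1.63% of all genes. Both compounds had raised many of these genes against DMSO, BKM120 27 of 44 (12.5% of all genes) and GDC0941 20 of 44 (9.81% of all genes), with 3 lower with BKM120 and 4 lower with GDC0941. KLHL24, which encodes a substrate adaptor of a ubiquitin ligase, read 408.1, 382, 350.1 and 376.6 in BKM120 cells, 284.8, 294.3, 301.8 and 230.3 in GDC0941 cells and 148.5, 143.1, 130.4 and 120.3 in DMSO cells. The 3 groups of KLHL24 arrays did not overlap: both compounds raised it, and BKM120 did so by 0.43 more (adjusted p = 0.0152).

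CCNG2, an unusual cyclin linked to cell-cycle arrest and a known FOXO target, had the same order. Its signal was 783.2, 739.4, 661.1 and 756.5 in BKM120 cells, 555.6, 537, 614.2 and 503.1 in GDC0941 cells and 373.6, 437.7, 368.6 and 310.9 in DMSO cells, with BKM120 0.40 above GDC0941 (adjusted p = 0.0152). TXNIP, which binds thioredoxin and restrains glucose uptake, averaged 422 ± 28 in BKM120 cells, 360 ± 15 in GDC0941 cells and 305 ± 8 in DMSO cells (SD, n = 4 each), a difference between the compounds of 0.22 (adjusted p = 0.0492). The 2 other TXNIP probe sets differed by less, 0.05 and 0.12. Dimmer probe sets of KLHL24 differed by -0.10 to 0.27 and those of CCNG2 by -0.06 to 0.15. IRS1, the adaptor that couples the insulin and IGF receptors to PI3K, went the other way against DMSO. IRS1 read 293.3, 296.1, 298.3 and 285 in BKM120 cells, 241.9, 243.1, 222 and 220.3 in GDC0941 cells and 402.2, 398.4, 379.8 and 382.5 in DMSO cells. Both compounds lowered IRS1, GDC0941 further, so that BKM120 was 0.32 above GDC0941 (adjusted p = 0.0152).

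Promoter sequences are shown for DHRS3, the gene with the largest called gap, and for 3 of the called FOXO-list genes, because DNA to which FOXO proteins can bind has a known letter pattern. The letters searched, in both directions, were GTAAACA for FOXO and CACGTG for the E-box, and AGGTCA for the core site of retinoic acid receptors. Each line is the 250 bases before the annotated start in RefSeq, build GRCh38.p14, 5' to 3' on the gene's strand, with matches in capitals.
DHRS3, chr1:12618211-12618460, minus strand: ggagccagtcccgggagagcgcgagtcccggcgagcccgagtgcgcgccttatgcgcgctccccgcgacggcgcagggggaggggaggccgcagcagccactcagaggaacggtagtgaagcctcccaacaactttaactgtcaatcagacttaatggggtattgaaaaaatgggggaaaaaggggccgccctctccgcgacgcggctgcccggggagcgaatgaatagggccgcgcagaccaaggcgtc
KLHL24, chr3:183635373-183635622, plus strand: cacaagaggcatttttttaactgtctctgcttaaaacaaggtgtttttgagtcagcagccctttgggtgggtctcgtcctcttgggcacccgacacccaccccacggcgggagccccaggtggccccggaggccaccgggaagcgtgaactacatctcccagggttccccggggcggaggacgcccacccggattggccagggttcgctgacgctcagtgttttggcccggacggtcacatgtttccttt
CCNG2, chr4:77156957-77157206, plus strand: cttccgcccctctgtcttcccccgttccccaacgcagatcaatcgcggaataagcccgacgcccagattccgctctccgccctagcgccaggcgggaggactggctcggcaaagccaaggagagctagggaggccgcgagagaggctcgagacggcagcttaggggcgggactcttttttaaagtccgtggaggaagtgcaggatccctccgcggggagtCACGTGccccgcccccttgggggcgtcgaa
TXNIP, chr1:145996580-145996829, minus strand: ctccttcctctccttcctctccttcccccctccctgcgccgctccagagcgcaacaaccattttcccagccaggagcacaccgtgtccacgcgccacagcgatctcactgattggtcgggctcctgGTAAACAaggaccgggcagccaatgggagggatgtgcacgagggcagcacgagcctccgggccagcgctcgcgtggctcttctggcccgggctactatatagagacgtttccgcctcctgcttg
TXNIP held 1 FOXO match and CCNG2 held 1 E-box match, and the windows of DHRS3 and KLHL24, and those of IRS1 and RDH13, which were searched in the same way, held none of the 3 patterns. Of 35116 promoter windows of this length, 2.979% held the FOXO letters, 6.345% the E-box and 12.08% the core site of retinoic acid receptors. A match describes these letters only.

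**Figure D2:**
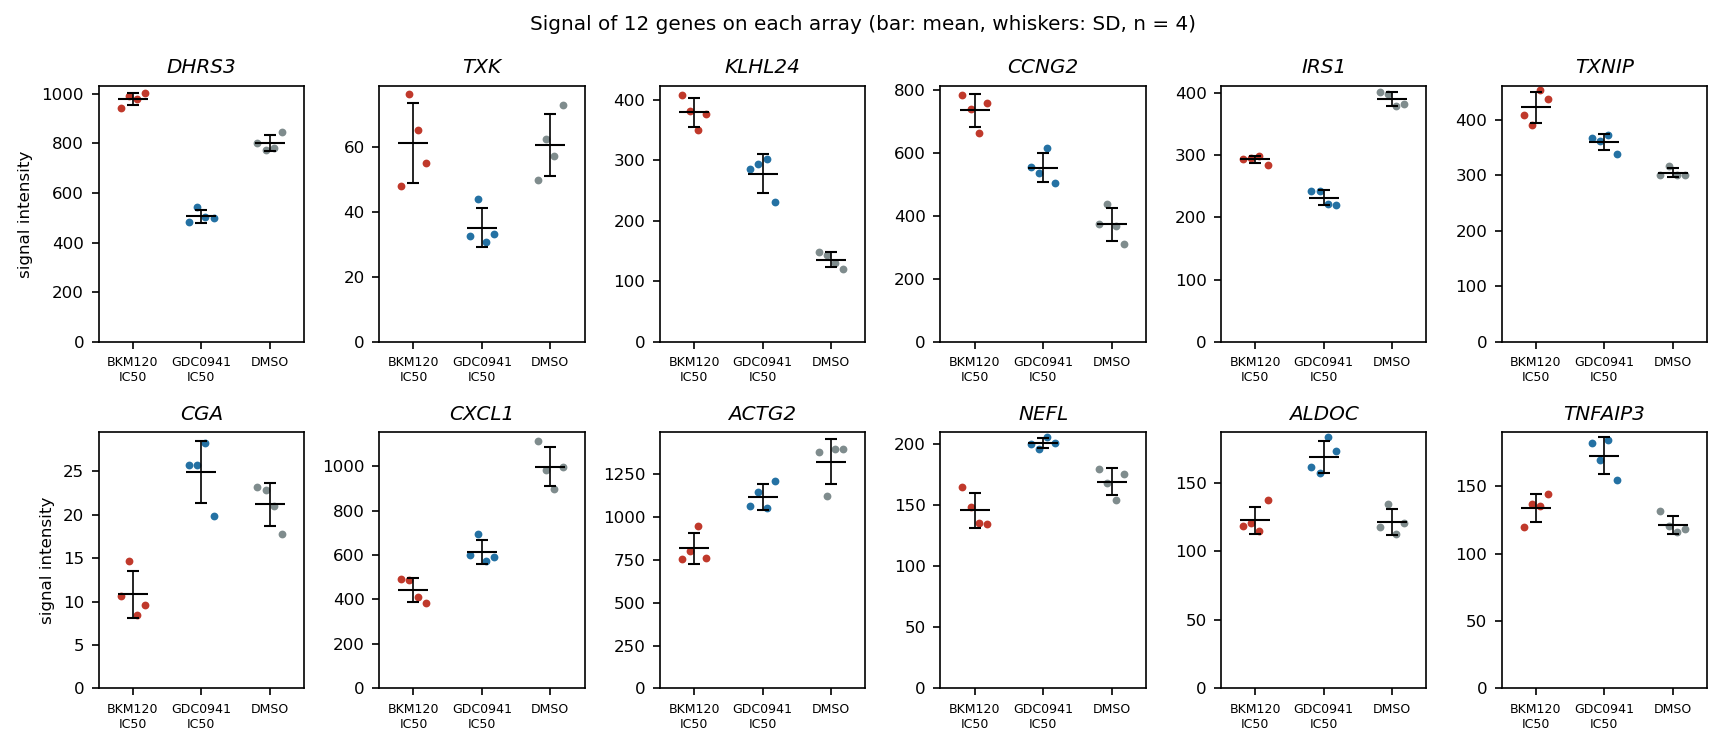
Signal of 12 genes on each array (linear axis in signal units) in BKM120 IC50, GDC0941 IC50 and DMSO cells, with the mean as a bar and the SD as whiskers (n = 4). The upper row holds genes called higher and the lower row genes called lower in BKM120 than in GDC0941.

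Beyond these lists, TXK had one of the wider gaps among the genes called higher in BKM120. TXK, a kinase of the Tec family, read 47.9, 76.4, 65.3 and 55.2 in BKM120 cells, 32.6, 43.9, 30.7 and 33.1 in GDC0941 cells and 49.8, 62.6, 57.2 and 72.8 in DMSO cells. TXK was thus at the DMSO level with BKM120 and below it with GDC0941, with a gap of 0.59 (adjusted p = 0.0152). FAXDC2, a member of the fatty acid hydroxylase family, read 171.4, 147.6, 123.1 and 133.3 in BKM120 cells, 88.9, 93.8, 119.7 and 89.1 in GDC0941 cells and 35.7, 44.8, 31.5 and 29.2 in DMSO cells. Both compounds raised FAXDC2, BKM120 by 0.49 more (adjusted p = 0.0305), and the other 2 probe sets differed by 0.26 and 0.32. TF, which encodes transferrin, and CFI, complement factor I, had the same order of groups: TF averaged 147 ± 20 in BKM120 cells, 104 ± 9 in GDC0941 cells and 81.8 ± 5.6 in DMSO cells (SD, n = 4 each). CFI averaged 268 ± 9 in BKM120 cells, 193 ± 23 in GDC0941 cells and 143 ± 12 in DMSO cells.

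MMP2, a secreted gelatinase, moved with BKM120 alone to a degree that passed the test. MMP2 read 571.9, 653.7, 692.6 and 618.3 in BKM120 cells, 459.6, 490.9, 487.9 and 480.7 in GDC0941 cells and 459.3, 506.9, 500.5 and 467.4 in DMSO cells. It was 0.39 above GDC0941 (adjusted p = 0.015) and was the 1 called gene of 29 tested in the list of dedifferentiated and invasive melanoma, whose median was 0.03. ULK2, a kinase that starts autophagy, was 0.47 higher (adjusted p = 0.0492) and was the 1 called gene of 59 in the lysosome and autophagy list, median 0.03. Dimmer probe sets of ULK2 differed by 0.10 to 0.23. CCNA2, the cyclin of S phase and mitotic entry, was 0.29 higher (adjusted p = 0.0344) and was the 1 called gene of 68 in the mitosis list, median -0.03. The other CCNA2 probe set, also bright, differed by 0.07. These single calls stand beside 0.455% of all genes called higher. ZNF623, a zinc finger gene, was 0.58 higher (adjusted p = 0.0152), and JMY, an actin nucleator and p53 cofactor, was 0.48 higher (adjusted p = 0.019).

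The remaining genes with the largest gaps on the higher side were TMEM168, CXCL16, VASH2, BTC, HLA-J and TMA16, at 0.44 to 0.47. CXCL16 is a membrane-bound chemokine, BTC a ligand of the EGF receptor and VASH2 an enzyme that trims tubulin. VASH2 was dim, at 21.1 to 31.9 in BKM120 cells and 11.7 to 18.7 in GDC0941 cells, and its other 2 probe sets differed by 0.05 and 0.07, while the other BTC probe set differed by -0.07. The other, dimmer TMEM168 probe set differed by 0.08. HLA-J is a pseudogene whose probe set can also bind other HLA class I transcripts. Genes with placeholder or noncoding names were kept apart from this choice. Among them FAM78B read 257, 257.1, 265.6 and 278.3 in BKM120 cells and 183.2, 175, 160.9 and 166.4 in GDC0941 cells, a gap of 0.58 (adjusted p = 0.000427) with no overlap. EFCAB13-DT differed by 0.51 (adjusted p = 0.00575), and the noncoding RNAs LINC00520 and LINC01537 by -0.53 and -0.32 (adjusted p = 0.00418 and 0.0043), all without overlap. TINAGL1, a matrix protein, named after its values were seen, had a gap of 0.71 (adjusted p = 0.0468), but its arrays overlapped at 119.6 to 205 in BKM120 cells and 76.8 to 122.4 in GDC0941 cells. PTMS, likewise named after its values were seen, had the widest gap on the lower side, -0.94 (adjusted p = 0.105, 0.0479 without the degraded array). PTMS read 800.9 on 1 of 4 GDC0941 arrays and 444.2 to 494.7 on the others. Its other, dimmer probe set differed by -0.02. The probe sets used for PTMS and TINAGL1 are of a cross-hybridising design.

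Of the genes called lower in BKM120, 2 belong to the NF-kB and cytokine list of 25 tested, whose median was -0.03, beside 0.143% of all genes called lower. CXCL1, a neutrophil chemokine, read 491.5, 486.1, 410.7 and 385.4 in BKM120 cells, 601.7, 693.7, 574.6 and 590.6 in GDC0941 cells and 1115.4, 981, 899.6 and 997.7 in DMSO cells. Both compounds lowered CXCL1, BKM120 by 0.46 more (adjusted p = 0.0234). TNFAIP3, the A20 protein that brakes NF-kB, read 120, 136.7, 135.1 and 144.4 in BKM120 cells and 182, 169.3, 184.5 and 154.5 in GDC0941 cells. TNFAIP3 was 0.33 lower (adjusted p = 0.0468), and against DMSO it rose with GDC0941 by 0.46.

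NEFL, the light chain of neurofilaments, read 164.9, 148.5, 135.4 and 134.2 in BKM120 cells, 200.5, 196.1, 205.8 and 200.6 in GDC0941 cells and 179.4, 168.5, 154.4 and 175.2 in DMSO cells. Its gap was -0.43 (adjusted p = 0.0043), and the 2 other NEFL probe sets gave -0.50 and -0.58. ACTG2, the smooth muscle gamma actin, read 758.1, 804.6, 946.3 and 758.5 in BKM120 cells and 1062.3, 1145.9, 1054.9 and 1213.6 in GDC0941 cells, a gap of -0.45 (adjusted p = 0.00251). SCRG1, a secreted peptide first known from brain, averaged 788 ± 36 in BKM120 cells and 1027 ± 64 in GDC0941 cells (SD, n = 4 each), a gap of -0.38 (adjusted p = 0.00418). CGA, the alpha chain of the glycoprotein hormones, had the largest called gap on this side, -0.61 (adjusted p = 0.0115), at the low signals of 8.5 to 14.7 in BKM120 cells and 19.9 to 28.3 in GDC0941 cells, where its other, dimmer probe set differed by 0.04.

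ALDOC, a glycolytic aldolase, read 118.2, 120.7, 114.6 and 137.2 in BKM120 cells, 161.9, 157.1, 183.2 and 173 in GDC0941 cells and 117.9, 134.4, 112.5 and 120.4 in DMSO cells. ALDOC rose with GDC0941 against DMSO and was at the DMSO level with BKM120, a gap of -0.41 between the compounds (adjusted p = 0.019). It was the 1 called gene of 36 tested in the list of glycolysis and hypoxia, with a list median of -0.12, and 6 were lower without the degraded array, beside 1.63% of all genes. PDK1, a kinase that inhibits pyruvate dehydrogenase, differed by -0.41 (adjusted p = 0.0829, 0.0388 without the degraded array). The called genes UQCRC1, a core subunit of respiratory complex III, AIFM1, an oxidoreductase released in apoptosis, and FASTKD5, an RNA-processing factor, differed by -0.26, -0.33 and -0.29. The other named genes on this side, BEGAIN, TOE1, TACC1, STEAP1 and MME, differed by -0.35 to -0.22, and 1 bright probe set of TACC1 gave 0.03.

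Of the 32 lists, 24 had no called gene, those of the drug target among them. With 0.598% of all genes called, lists of these sizes have little room for a call, so a count of 0 says little about them. The 10 genes tested of the PI3K subunit list differed by -0.19 (PIK3R3) to 0.14 (PIK3C2A), and the 21 AKT, mTOR and TSC genes by -0.24 (TBC1D7) to 0.18 (RPS6KB2). The interval of every one of these 31 genes lay within 0.5 on the log2 scale. The same held for the 15 tubulin genes, looked at because BKM120 is also known to bind tubulin, with TUBB6 lowest at -0.25 (adjusted p = 0.261). TUBB6 was called lower without the degraded array. Of 22 genes for cholesterol synthesis, 0 were called between the compounds, while BKM120 had raised 17 and GDC0941 16 against DMSO, beside 12.5% and 9.81% of all genes. Of 35 genes of the melanocyte lineage, 0 were called between the compounds. Each compound had raised 22 of these against DMSO, beside the same 12.5% and 9.81% of all genes. For 33 genes of the ATF4 stress response, likewise without a call between the compounds, 15 were lower than DMSO with BKM120 and 14 with GDC0941, beside 7.34% and 6.15% of all genes.

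Some genes came near the threshold and passed it without the degraded array. CCN1 and CCN2, matrix proteins and targets of YAP, fell with both compounds against DMSO, and BKM120 lay below GDC0941 by 0.42 for CCN1 (adjusted p = 0.0823, 0.0328 without that array) and by 0.47 for CCN2 (adjusted p = 0.0732, 0.0336). IRF4, a melanocyte transcription factor, differed by -0.43 (adjusted p = 0.123, 0.0106 without that array).

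**Figure D3:**
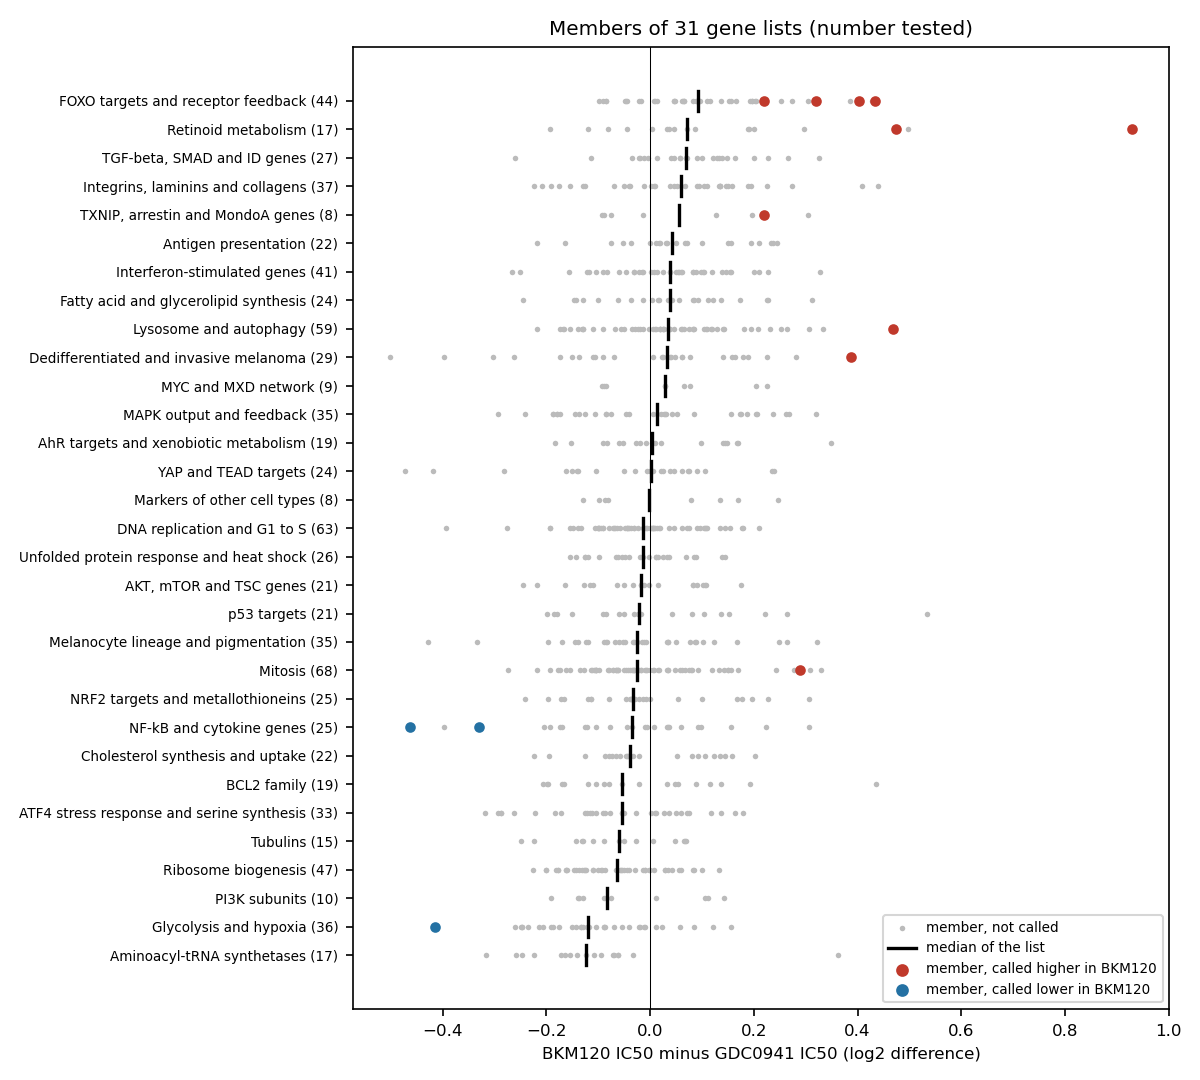
Difference between BKM120 IC50 and GDC0941 IC50 cells (horizontal axis, log2) for the tested members of 31 gene lists, with 1 dot per gene and a bar at the median of each list. Called genes are coloured, and the list medians lie between -0.12 and 0.09.

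Of the 16 genes that moved furthest with both compounds against DMSO, 8 in each direction, 1 was called between the compounds. For 3 of the 16 the groups did not overlap. Over all genes, 0.598% were called and 12.7% did not overlap. The gaps of the 16 ran between -0.47 and 0.49. Their ranking used whichever change against DMSO was smaller, on the same IC50 arrays, which favours genes moved alike by both compounds. The called one was FAXDC2, described above. CCN2, at -0.47, and MLANA, a melanosome protein, at 0.10, also had groups that did not overlap but did not pass the test (adjusted p = 0.0732 and 0.487), and TRPM1, a melanocyte channel, stood at 0.32 (adjusted p = 0.16). The others named here were chosen after their values were seen. P2RX7, an ATP-gated channel, averaged 311 ± 24 in BKM120 cells, 311 ± 33 in GDC0941 cells and 124 ± 13 in DMSO cells (SD, n = 4 each), and the 95% interval of the gap between the compounds was -0.19 to 0.19. ASNS, asparagine synthetase, averaged 239 ± 21 in BKM120 cells, 273 ± 12 in GDC0941 cells and 737 ± 15 in DMSO cells, with a gap of -0.18 (interval -0.39 to 0.03). CRISPLD2, a secreted protein, averaged 38.8 ± 3.6 in BKM120 cells, 39.1 ± 4.8 in GDC0941 cells and 112 ± 9 in DMSO cells, with an interval of -0.32 to 0.31. The gap was -0.09 for STK32A, 0.03 for CRYL1, -0.11 for NGFR and -0.17 for CXCL8, and none of these passed the test. The arrays of the compounds overlapped for P2RX7, CRISPLD2, STK32A, CRYL1, NGFR and CXCL8. For CXCL8 another, brighter probe set of a cross-hybridising design gave 0.22.

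Beside DMSO, the 71 genes fell into more than 1 kind. Of the 54 higher in BKM120, 36 were above DMSO with BKM120 and 10 with GDC0941, while 2 were below DMSO with BKM120 and 13 with GDC0941. The median of the 54 against DMSO was 0.29 with BKM120 and -0.07 with GDC0941. Of the 17 lower in BKM120, 8 were below DMSO with BKM120 and 2 with GDC0941, while 1 was above it with BKM120 and 7 with GDC0941. Over all genes, 12.5% were called above DMSO with BKM120 and 9.81% with GDC0941, and 7.34% and 6.15% were called below it. Both contrasts use the same DMSO arrays, and the split of the 71 follows in part from how they were chosen.

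At the next level the compounds were much further apart. BKM120 IC90 (max) and GDC0941 IC90 differed in 3564 genes (30%; 11.7% higher, 18.3% lower), and the gap itself changed between the levels for 2296 genes (19.4%). Of the 54 genes higher at IC50, 17 were called higher at IC90 (31.5%), 8 were called lower and 29 were not called. Of the 17 lower at IC50, 10 were called lower at IC90 (58.8%), 3 were called higher and 4 were not called. For NEFL the gap widened to -1.02 at IC90, and for TXK to 1.18. IRS1 and TXNIP also widened, to 0.89 and 0.74, and all 4 changes passed the test of the change of the gap.

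For others the gap turned round between the levels. These genes were chosen by their gap at IC50, so some narrowing at IC90 can follow from that choice. CXCL1, lower in BKM120 at IC50, was 0.67 higher at IC90, and ACTG2 was 0.76 higher at IC90, with changes of the gap of 1.13 and 1.21 (adjusted p = 3.13e-07 and 1.97e-10). The signal of ACTG2 with BKM120 was 1325 in DMSO, 893 at IC30, 817 at IC50 and 1260 at IC90 (max), and with GDC0941 1325 in DMSO, 1119 at IC50, 737 at IC90 and 537 at max. CXCL1 likewise had its lowest values at IC30 and IC50 of BKM120, 438 and 443, and 816 at IC90 (max), but was lower at each level of GDC0941, 615, 506 and 464, against 998 in DMSO. MME, neprilysin, turned to 0.35 higher. On the other side, FAXDC2 and VASH2 turned to -0.30 and -0.43, and KLHL24 had -0.18 at IC90, which did not pass the test (adjusted p = 0.133).

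**Figure D4:**
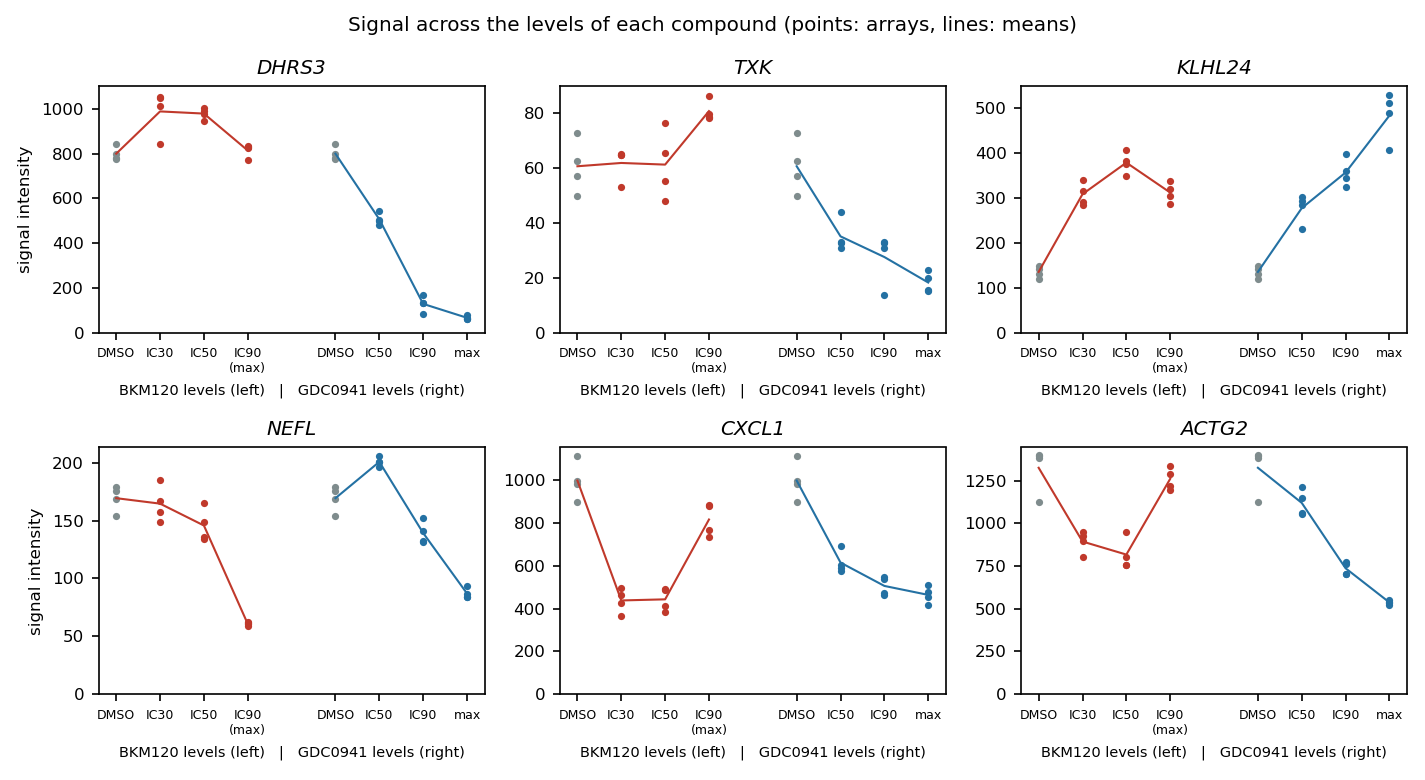
Signal (linear axis) of 6 genes across the levels of BKM120 (left) and GDC0941 (right), each starting from the same DMSO arrays, with 1 point per array and lines through the means. DHRS3 and TXK fall with GDC0941 and do not with BKM120, while within the BKM120 levels CXCL1 and ACTG2 are lowest at IC30 and IC50.

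**Figure D5:**
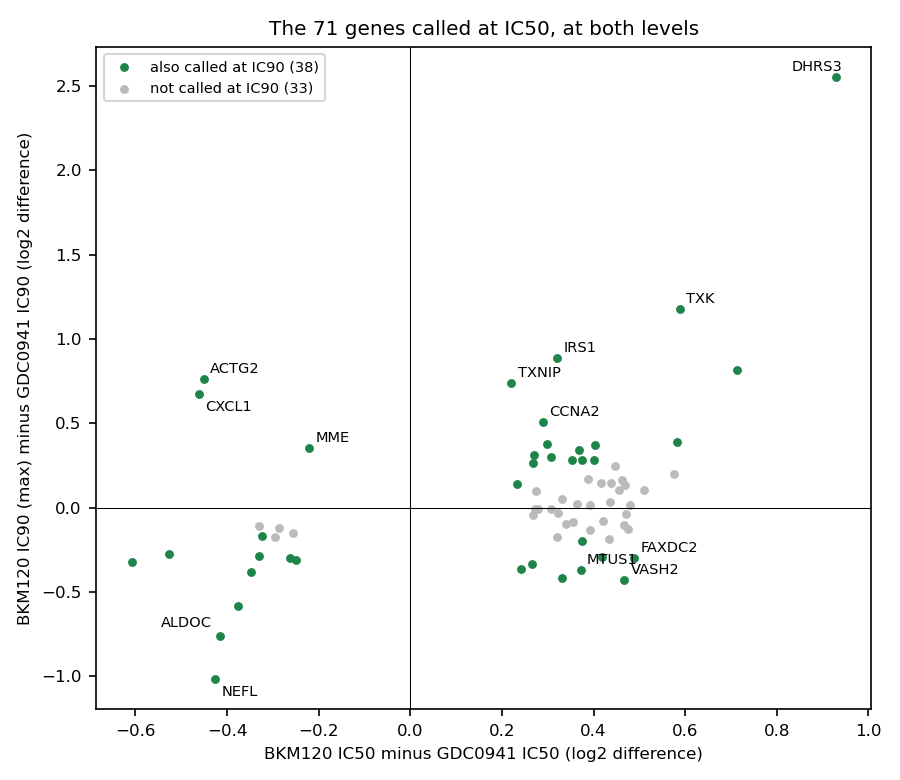
The 71 genes called at IC50, with the BKM120 minus GDC0941 difference at IC50 (horizontal axis, log2) against that at IC90 (vertical axis, log2). Green points, 38 genes, are also called at IC90, and DHRS3 has the largest gap at both levels.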

How the data were processed

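RNA of A2058 cells was amplified linearly and hybridised to arrays of 54675 probe sets, read in 1 colour. The deposited intensity values came from MAS5 (per the submitters' processing notes, which name no version). The mean of each array without its highest and lowest 2% of probe sets was 150, so each was scaled by a single factor, and present calls were not used. Arrays have no read depth, and 4 per group limit the precision.

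Of the probe sets, 41097 carried 1 gene symbol, 1801 several and 11777 none. Each of the 19775 genes was represented by its brightest probe set, cross-hybridising designs being used only where no other existed, and the 11865 genes above the 40th percentile were tested, the lowest at a mean signal of 13.6. Fold changes are on the log2(signal + 16) scale, which understates changes of dim genes. limma 3.58.1 in R 4.3.3 fitted the 10 groups over 40 arrays (30 residual degrees of freedom) with trended moderated variances, and p-values were adjusted by Benjamini-Hochberg over all genes. The model was tested on simulated data.

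The comparison, the gene lists and the named genes were chosen with earlier results of these data known. Named were up to 15 genes per direction whose groups did not overlap, leaving out placeholder symbols, up to 6 members per list, and others as stated. Alternatives were another pseudocount (1 or 64), filter, probe-set rule, normalization and choice of arrays, a replicate block, and leaving out each array. Same-numbered arrays of the compounds correlated at -0.16 to 0.08 in their deviations from the group mean, and 1 of 4 correlated best with its own number, so the numbers do not pair them. Plots were made with matplotlib 3.10.9.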

Additional observations from a re-analysis of the deposited data

Results flagged for a closer look

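On single arrays, 8 of 144 gene and group pairs (5.56%) had 1 array far from the other 3, by Dixon's 95% criterion, where chance gives about 5 in 100. In BKM120 cells these were ULK2 at 258.8 on replicate 1, against 301.6 to 308.8 on the others, CFI at 254.6 on replicate 3 (others 271.4 to 273.1), AIFM1 at 470.3 on replicate 3 (others 425.2 to 431.4), UQCRC1 at 683.3 on replicate 1 (others 747.8 to 761.7) and TUBB6 at 663.3 on replicate 1 (others 711.7 to 720.1). In GDC0941 cells they were RDH13 at 168.5 on replicate 4 (others 226 to 230.8), CCN2 at 141.3 on replicate 4 (others 93.3 to 98) and NGFR at 49.9 on replicate 3 (others 65.4 to 65.9).

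Of 69 named genes, 32 had a gap between BKM120 and GDC0941 that changed between the IC50 and IC90 levels (limma, adjusted p under 0.05). The change, IC90 gap minus IC50 gap on the log2 scale, was positive for DHRS3 (1.62), TXK (0.59), CXCL1 (1.13), ACTG2 (1.21), MME (0.57), IRS1 (0.57), TXNIP (0.52), CCN1 (1.92), CCN2 (1.56), NRG1 (1.38), NEK2 (0.92), TUBB6 (0.79), CXCL8 (1.15), NGFR (1.10) and CRISPLD2 (0.72). It was negative for FAXDC2 (-0.79), JMY (-0.46), RDH13 (-0.60), TMEM168 (-0.51), VASH2 (-0.90), ULK2 (-0.57), TMA16 (-0.40), NEFL (-0.59), KLHL24 (-0.62), ARRDC3 (-1.17), TRPM1 (-0.99), MLANA (-0.38), PIK3R3 (-0.64), RRM2B (-0.64), STK32A (-1.27), CRYL1 (-0.83) and EFCAB13-DT (-0.40). Over all genes tested, the share was 19.4%. Many of the named genes were chosen by their IC50 gap, which the change subtracts, so their share follows in part from that choice.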

How the results depend on the processing

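The number of genes that separate BKM120 IC50 from GDC0941 IC50 (71, with 54 higher and 17 lower) depends on the processing. It was 37 with the mean over probe sets (17 higher, 20 lower), 137 with quantile normalization (90 higher, 47 lower), 490 without the degraded array (297 higher, 193 lower) and 350 with only the 8 arrays compared (234 higher, 116 lower). Without 1 array it ranged between 18 and 118 (12 to 96 higher, 6 to 22 lower). It stayed within 1.5 times with a pseudocount of 1 or 64, without a filter, with a filter at the 60th percentile, and with a replicate block (59, with 47 higher and 12 lower). Of the other comparisons, a filter at the 60th percentile gave 2343 genes (878 higher) at IC90 and 988 genes higher with BKM120 IC50 than in DMSO. Without the degraded array, 1386 genes were lower with BKM120 IC50 than in DMSO, GDC0941 IC50 changed 2863 (1147 lower), and with only the arrays compared the gap rose between the levels for 1333 genes. The cause was not tested.

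Over 683 pairs of a called gene and an alternative, 466 kept the call, 217 lost it and 0 changed direction. DHRS3, VASH2, CGA, NEFL, LINC00520 and LINC01537 were called in every alternative run that gave them a value. CGA and VASH2 rest on dim signals and gave no value with the mean over probe sets or with a filter at the 60th percentile.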
